A study of Homo sapiens with 5 samples.

Results

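The aminoacyl tRNA synthetases are the enzymes that join each amino acid to its tRNA. They were taken here as the protein-coding human genes of the deposited gene table whose symbol ends in ARS1 or ARS2, together with EPRS1. This gave 35 genes of 65217 gene identifiers, of which 18 encode cytosolic enzymes (symbols ending in 1) and 17 mitochondrial enzymes (symbols ending in 2). All 35 passed the filter on low counts. The rule used gene names and not expression values, but it was chosen with earlier results of these data known.

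Their expression was measured in the human REH line, an established line of precursor B acute lymphoblastic leukaemia with the ETV6-RUNX1 (TEL-AML1) fusion. The cells had grown in NSG mice (NOD.Cg-PrkdcscidIl2rgtm1Wjl/SzJ), a strain without B, T and natural killer cells, that were 6 to 10 weeks old. Both groups carried the same cell line in the same strain, with no drug named in the labels, and differed in the organ from which the cells were taken: the brain, where they were collected from the leptomeninges, in 3 libraries, and the spleen in 2 libraries. Each library held the combined RNA of 5 mice from 1 of 3 independent occasions, and the third spleen sample had failed the submitters' quality control. A single cell line limits the model to 1 leukaemia genotype, and pooling hides the spread between mice. In such bulk samples, fewer cells of a type and less RNA per cell cannot be told apart.

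Each enzyme first activates its amino acid with ATP and then transfers it to the tRNA that carries the matching anticodon. Human cells keep 1 set of enzymes for translation in the cytosol and another, also encoded in the nucleus, for translation of the few proteins made inside mitochondria. Several cytosolic enzymes sit together in the multisynthetase complex. Many of the cytosolic genes are targets of ATF4, a transcription factor whose translation rises when amino acids run short, and which with C/EBP partners binds DNA elements that contain the letters TGATGNAA. WARS1 is also known as an interferon-induced gene.

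The starts of the genes are shown because some of the cytosolic genes hold this motif there. The RefSeq promoter table (GRCh38.p14) had an entry for 28 of the 35 genes, 14 cytosolic and 14 mitochondrial, each running from 250 bases before to 50 bases after the gene's start. TGATGNAA, searched on both strands with N standing for any base, was found in 6 of 14 cytosolic windows (42.9%) and in 1 of 14 mitochondrial windows (7.14%). Of all 35116 windows in the table, 3.62% held it, and of the 21613 windows of protein-coding genes, 2.71%. The cytosolic windows with a match belonged to AARS1, CARS1, IARS1, MARS1, NARS1 and TARS1, and each of these matches read TGATGCAA on one of the strands. The 1 mitochondrial match, in YARS2, read TGATGGAA. A match describes letters in a window and does not show binding. The printed stretches are 75 bases long, 5′ to 3′ on the gene's strand, with the match in capitals. WARS1 and CARS2, whose windows held no match, are shown beside them and were picked because both were lower in cells from brain. They do not stand for all genes without a match. Of the 8 cytosolic genes without it 3 had a positive log2 fold change, brain over spleen, as had 4 of the 13 mitochondrial ones. Of the 6 cytosolic genes with it 5 had a positive value.
CARS1, chr11:3057399-3057473, minus strand: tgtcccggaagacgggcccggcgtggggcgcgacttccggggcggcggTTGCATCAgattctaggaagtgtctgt
TARS1, chr5:33440915-33440989, plus strand: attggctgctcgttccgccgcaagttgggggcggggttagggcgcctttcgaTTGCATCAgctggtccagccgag
IARS1, chr9:92293673-92293747, minus strand: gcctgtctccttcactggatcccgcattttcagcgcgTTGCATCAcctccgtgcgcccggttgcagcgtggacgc
MARS1, chr12:57488018-57488092, plus strand: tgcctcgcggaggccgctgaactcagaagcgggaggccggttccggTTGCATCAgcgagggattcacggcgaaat
NARS1, chr18:57621812-57621886, minus strand: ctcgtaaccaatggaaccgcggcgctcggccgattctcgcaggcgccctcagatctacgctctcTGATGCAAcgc
WARS1, chr14:100376303-100376377, minus strand: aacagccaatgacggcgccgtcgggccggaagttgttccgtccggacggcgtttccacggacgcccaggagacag
CARS2, chr13:110706491-110706565, minus strand: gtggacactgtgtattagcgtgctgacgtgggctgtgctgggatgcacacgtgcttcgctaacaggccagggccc
In each of the 5 printed genes that have it, the match lay at or close to the RefSeq start. Counted from the start base as 1, its first base stood at -2 in CARS1, 3 in TARS1, -13 in IARS1, -4 in MARS1 and 15 in NARS1. In AARS1 it stood at -187, and in YARS2 at -197.

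Libraries held 38387991 to 48764202 estimated counts on human genes. Of 11 precursor B cell markers, 10 were detected in every library and VPREB1, a part of the surrogate light chain, had 0 counts in all of them. Their summed level was 7218 to 7492 CPM (estimated counts scaled to a fixed library total) in brain and 7522 to 7867 CPM in spleen. Within that list RAG1 was higher and CD79A was lower in brain, while the human forms of 11 genes that mark other cell types summed to only 22.5 to 24.0 CPM in brain and 18.0 and 20.2 CPM in spleen. Of these, SNAP25 was at 0 in every library and HBB was at 0 in all but spleen replicate 1. CD68 was called higher in brain at low counts, 25, 85 and 46 in brain and 11 and 16 in spleen. That call was lost without brain replicate 2 and without brain replicate 3. The share of estimated counts on mouse transcripts was 5.70%, 2.58% and 2.64% in brain replicates 1 to 3 and 6.33% and 8.87% in spleen replicates 1 and 2. It was 3.64% ± 1.79 (SD, n = 3) in brain and 7.60% ± 1.796 (SD, n = 2) in spleen, with an exact two-sided permutation p of 0.2, where 10 arrangements allow no p below 0.1. Its part in the results below was not tested beyond a fit that carried it as a covariate.

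Cells from brain and from spleen were compared to see how the leukaemia cells of the 2 sites differ. Of the 18 cytosolic genes, CARS1 was higher in brain, WARS1 was lower and 16 did not pass the test. Of the 17 mitochondrial genes, 0 were higher, CARS2 and SARS2 were lower and 15 did not pass. The test was the quasi-likelihood test of edgeR, with p adjusted by Benjamini and Hochberg's method over the 20419 genes tested and a threshold of 0.05. Over all these genes, 6.01% were called higher (1228 genes) and 3.5% lower (714 genes), so 1 of 18 cytosolic genes in each direction was near the background. The median log2 fold change, brain over spleen, was 0.06 for the cytosolic set, -0.10 for the mitochondrial set and 0.01 for all genes tested. With each library left out in turn, it ran from 0.026 to 0.086 for the cytosolic and from -0.15 to -0.040 for the mitochondrial set. At an unadjusted p under 0.05, 3 cytosolic genes were higher and 3 lower, against 0 and 5 mitochondrial genes. Over all genes 14.2% were higher and 11.3% lower at that threshold, so the cytosolic counts were near the background. DESeq2 called 0 mitochondrial genes higher and 3 lower, and 2 cytosolic genes higher and 2 lower. Its calls over all genes with an adjusted p were 8.6% higher and 7.29% lower.

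**Figure D1:**
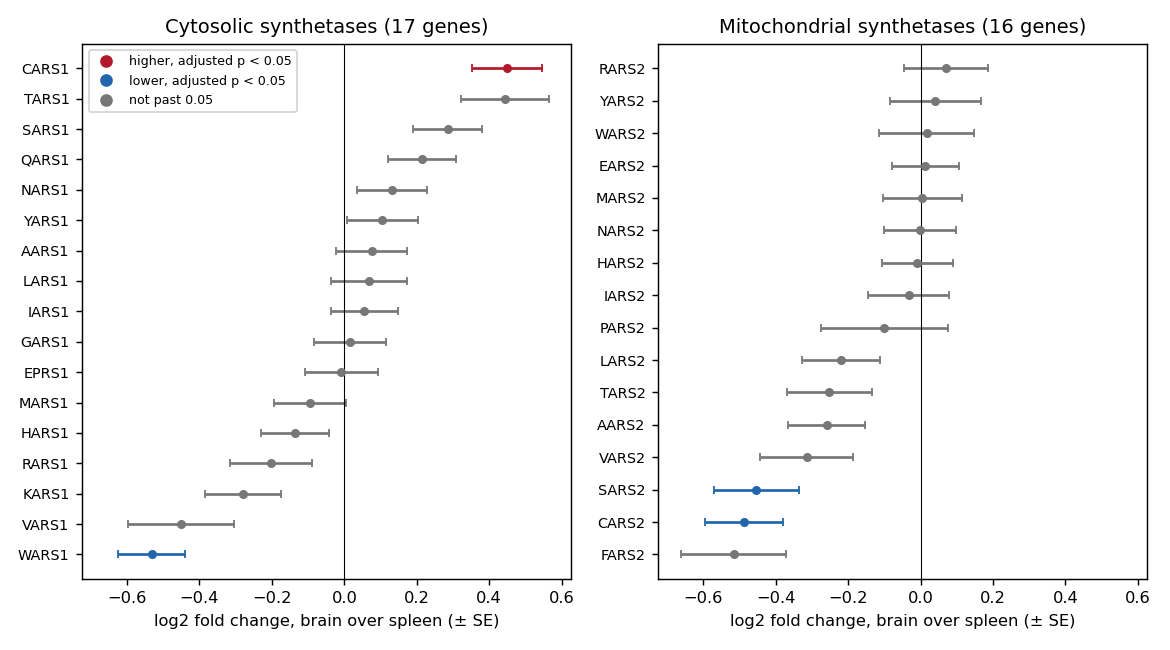
Log2 fold change of each synthetase gene, brain (n = 3 libraries) over spleen (n = 2), with its standard error, for 17 of the 18 cytosolic genes on the left and 16 of the 17 mitochondrial genes on the right; red and blue points passed the adjusted threshold. The cytosolic values run from -0.53 (WARS1) to 0.45 (CARS1), and no plotted mitochondrial value lies above 0.07 (RARS2).

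CARS1, which charges the cytosolic cysteine tRNA, was at 81.8, 78.1 and 77.4 CPM in brain replicates 1 to 3 and at 61.0 and 54.9 CPM in spleen replicates 1 and 2. Every brain library lay above both spleen libraries. The log2 fold change was 0.45 (SE 0.10, adjusted p = 0.0235 by edgeR), a ratio of 1.37. The gene lies on chromosome 11, from 3000922 to 3057613 on the minus strand (GRCh38, GENCODE 44). It no longer passed when 1 of 3 libraries was left out, namely brain replicate 1 (adjusted p = 0.109), brain replicate 2 (0.0645) and spleen replicate 2 (0.0947).

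WARS1, the cytosolic tryptophan enzyme, moved the other way. It was at 45.2, 48.5 and 48.0 CPM in brain and 70.8 and 65.9 CPM in spleen, so that the groups were separate. The log2 fold change was -0.53 (SE 0.09, adjusted p = 0.0111 by edgeR), and the spleen level was 1.45 times the brain level. WARS1 lies on chromosome 14, from 100333790 to 100376805 on the minus strand. Leaving out brain replicate 1 ended its call (adjusted p = 0.0679).

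CARS2 charges the mitochondrial cysteine tRNA, and its values were 50.9, 53.8 and 46.6 CPM in brain and 75.5 and 65.9 CPM in spleen. No brain library reached either spleen library. The log2 fold change was -0.49 (SE 0.11, adjusted p = 0.0251 by edgeR). CARS2 lies on chromosome 13, from 110641412 to 110713603 on the minus strand. Only leaving out spleen replicate 2 kept the call among the fits without 1 library, and the adjusted p without the other libraries was 0.102 (brain replicate 1), 0.0516 (brain replicate 2), 0.0609 (brain replicate 3) and 0.113 (spleen replicate 1).

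SARS2, the mitochondrial serine enzyme, was at 29.2, 32.7 and 26.3 CPM in brain and 41.7 and 38.8 CPM in spleen. The groups did not overlap, with brain replicate 2 nearest to the spleen values. The log2 fold change was -0.45 (SE 0.12, adjusted p = 0.0438 by edgeR). SARS2 lies on chromosome 19, from 38915266 to 38930763 on the minus strand. Its call was lost with the replicate number as a block (adjusted p = 0.0865 by edgeR) and when any 1 of the 5 libraries was left out. The adjusted p by edgeR was 0.145, 0.0516 and 0.0987 without brain replicates 1 to 3. Without spleen replicate 1 the log2 fold change was -0.41, and without spleen replicate 2 it was -0.51.

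With the mouse share of each library as a covariate, none of the 4 genes passed. The adjusted p was then 0.348 for CARS1, 0.155 for WARS1, 0.258 for CARS2 and 0.348 for SARS2, while the log2 fold changes were 0.43, -0.67, -0.57 and -0.52. The same fit called 114 genes higher and 11 lower over all genes, and the covariate was lower in every brain library than in every spleen library.

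**Figure D2:**
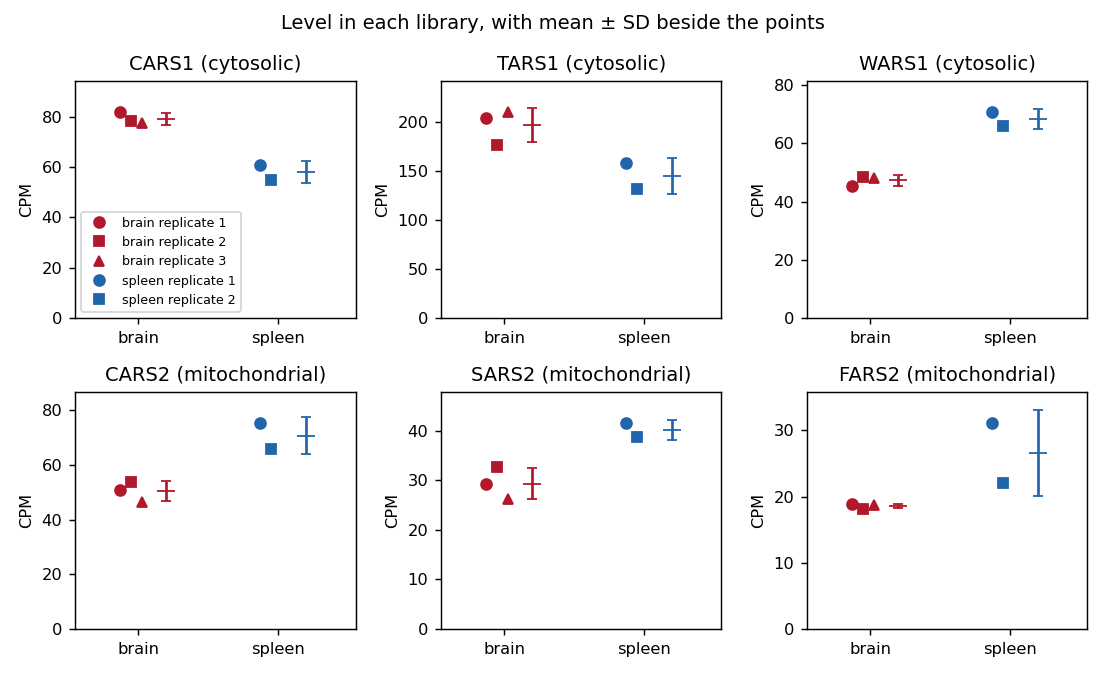
CPM of 6 synthetase genes in each library, with the mean and SD of each group (3 brain and 2 spleen libraries) beside the points and axes that start at 0. CARS1 and TARS1 lie higher in brain and the other genes lie higher in spleen; in each panel the groups do not overlap, and TARS1 and FARS2 did not pass the threshold.

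TARS1, the cytosolic threonine enzyme, had a fold change close to that of CARS1 but a wider spread. Its values were 204, 177 and 210 CPM in brain and 158 and 132 CPM in spleen. All brain values were above the spleen values. The log2 fold change was 0.44 (SE 0.12, adjusted p = 0.0542 by edgeR), and it passed with the replicate number as a block (adjusted p = 0.0432 by edgeR). FARS2, the mitochondrial phenylalanine enzyme, was at 18.8, 18.2 and 18.8 CPM in brain and 31.2 and 22.0 CPM in spleen. The brain values had an SD of 0.353 CPM (n = 3), and spleen replicate 1 stood well above spleen replicate 2. Its log2 fold change was -0.52 (SE 0.15, adjusted p = 0.059 by edgeR), and it became -0.75 without spleen replicate 2 (adjusted p = 0.00931) and -0.25 without spleen replicate 1 (adjusted p = 0.316). VARS1, the cytosolic valine enzyme, was at 52.0, 61.1 and 46.8 CPM in brain and 63.2 and 82.6 CPM in spleen. Its log2 fold change was -0.45 (SE 0.15, adjusted p = 0.0891 by edgeR), and it became -0.64 without spleen replicate 1 (adjusted p = 0.0442) and -0.25 without spleen replicate 2 (adjusted p = 0.390). VARS1 and VARS2 lie in the MHC region of chromosome 6, where alternate haplotype copies can share reads, so their counts are uncertain.

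Among the other cytosolic genes, SARS1 had a log2 fold change of 0.29 (adjusted p = 0.0973 by edgeR), with 127, 130 and 126 CPM in brain and 110 and 99.9 CPM in spleen. KARS1, the lysine enzyme, was at 278, 289 and 320 CPM in brain and 373 and 345 CPM in spleen, with a log2 fold change of -0.28 (SE 0.11, adjusted p = 0.133 by edgeR). For both of these the groups were separate and the difference missed the threshold, which does not show equal levels. GARS1, the glycine enzyme, whose gene serves both compartments, was at 132, 130 and 130 CPM in brain and 138 and 121 CPM in spleen. Its brain values lay inside the range of the spleen values, with a log2 fold change of 0.02 (SE 0.10, adjusted p = 0.947 by edgeR).

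Most mitochondrial genes had a negative log2 fold change that did not pass the test. Log2 fold changes of VARS2, AARS2, TARS2 and LARS2 were -0.31, -0.26, -0.25 and -0.22, none of them past the threshold. RARS2 had the highest value of the set, 0.07 (adjusted p = 0.772 by edgeR), and NARS2 and IARS2 were at -0.0014 and -0.03. Of the 17 mitochondrial genes, 12 had a negative fold change, and in 8 every brain library was below every spleen library, in 0 every brain library was above and in 9 the groups overlapped. Of the 18 cytosolic genes, 11 had a positive fold change, and every brain library was above every spleen library in 8, below in 4 and overlapping in 6. Over all genes tested, 23.3% had every brain library above and 19.5% had every brain library below. HARS1 and HARS2 lie head to head on opposite strands of chromosome 5 and overlap by 108 bases, and since the strand setting of the counting is not given in the sources used here, reads in that stretch cannot be told apart.

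Levels of different genes were compared per length, as TPM, the estimated counts divided by transcript length and scaled to a fixed sum over the human transcripts of a library. This was possible for 30 genes, 17 cytosolic and 13 mitochondrial, whose transcript names could be matched to at least 0.95 of the gene's counts. LARS1, EARS2, LARS2 and VARS2 were among those left out of it. KARS1 had the highest mean over the 5 libraries, 237 TPM, and was at 201, 216 and 233 TPM in brain and 254 and 279 TPM in spleen. MARS1 and AARS1 had means of 141 and 136 TPM, and their ranges over libraries overlapped. The cytosolic genes with the lowest means were WARS1, which ranged from 36.5 to 55.1 TPM over libraries, CARS1 with a mean of 41.7 TPM and VARS1 with 33.2 TPM.

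TARS1 was at 130, 119 and 146 TPM in brain and 92.5 TPM in spleen replicate 2, but at 344 TPM in spleen replicate 1. In that library 241 TPM, or 70.3% of the gene's level, was assigned to 1 transcript of 171 bases, ENST00000627006, which was at 0 in the other 4 libraries. Estimated counts, which are not divided by length, show no such peak for TARS1 (158 CPM in that library).

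Summed over all transcripts of a gene, the mitochondrial gene with the highest mean TPM was CARS2, at 49.1, 53.7 and 45.5 TPM in brain and 66.6 and 65.8 TPM in spleen. IARS2 and YARS2 followed with means of 46.7 and 38.6 TPM, and SARS2 with 37.7 TPM. In brain the ranges of neighbours in this order overlapped, while in spleen SARS2 (42.2 and 46.7 TPM) lay above YARS2 (36.9 and 35.0 TPM). MARS2, WARS2 and PARS2, at 9.2, 5.4 and 3.9 TPM, were lowest. The order of the highest genes depends on which transcripts are summed. By its main coding transcript alone, CARS2 was at 18.1, 19.3 and 16.7 TPM in brain and 24.3 and 31.9 TPM in spleen. That of IARS2 was higher, at 43.3, 42.3 and 48.7 TPM in brain and 45.3 and 46.9 TPM in spleen. In YARS2, a transcript of 489 bases without a defined coding region held 41.8% to 60.7% of the gene's TPM. Over all transcripts, CARS2 was above CARS1 in cells from spleen, at 66.2 TPM ± 0.6 against 34.4 TPM ± 0.9 (SD, n = 2). In cells from brain they were close, at 49.4 TPM ± 4.1 and 46.6 TPM ± 0.5 (SD, n = 3). The main coding transcript of CARS1 was at 20.5, 23.6 and 23.5 TPM in brain, above that of CARS2. In spleen it was at 15.6 and 17.1 TPM, below that of CARS2.

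**Figure D3:**
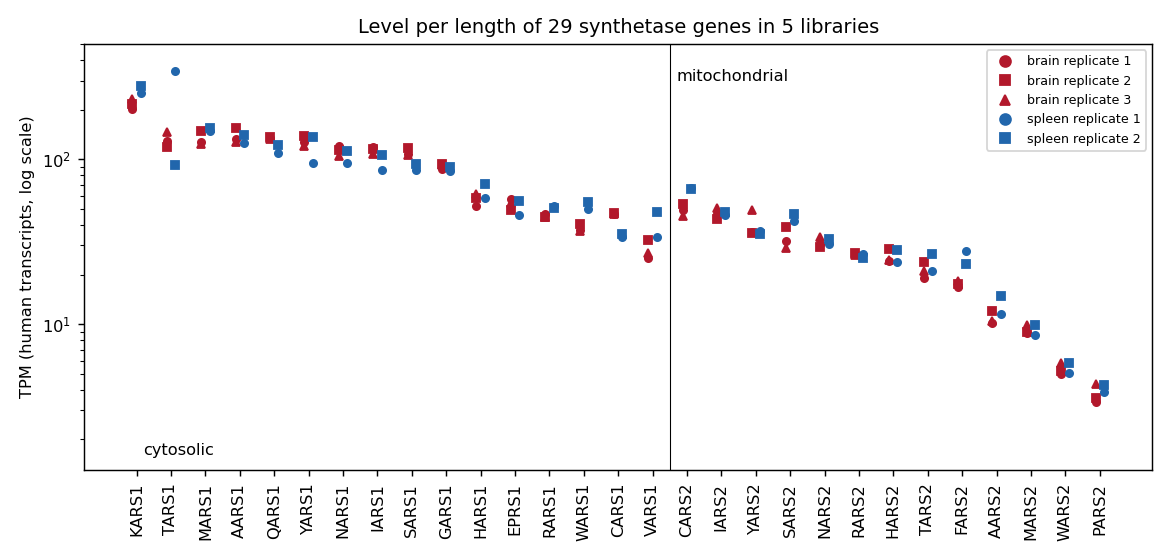
TPM of 29 of the 30 synthetase genes on a log axis, cytosolic genes on the left and mitochondrial genes on the right, each in falling order of the mean, with 1 point for each of the 3 brain and 2 spleen libraries. Values fall from KARS1 (mean 237 TPM) to PARS2 (mean 3.9 TPM), and the high TARS1 point is spleen replicate 1 (344 TPM).

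Summed over genes, the cytosolic set was at 2967, 2919 and 2978 CPM in brain and 2937 and 2807 CPM in spleen, and the mitochondrial set was at 627, 638 and 632 CPM in brain and 729 and 685 CPM in spleen. The cytosolic sums of the groups overlapped, while every brain library was below both spleen libraries in the mitochondrial sum. The ratio of the sums, which in CPM is read only between libraries, was 4.73, 4.57 and 4.71 in brain and 4.03 and 4.10 in spleen. By TPM it was 5.65, 5.54 and 5.35 in brain and 5.30 and 4.95 in spleen, and without TARS1 it was 5.23, 5.18 and 4.90 in brain and 4.32 and 4.70 in spleen. In all of these each brain ratio was above each spleen ratio. The mean log2 ratio was higher in brain by 0.20 in CPM, by 0.11 in TPM and by 0.18 in TPM without TARS1, a choice made after the TARS1 values were seen. No p is given for sums over a chosen set.

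The 2 enzymes for the same amino acid were compared within each library as the log2 ratio of cytosolic to mitochondrial CPM, in 16 pairs, with EPRS1, which charges both glutamate and proline tRNAs, paired with EARS2 and with PARS2. FARS2 has no partner, since the cytosolic phenylalanine enzyme is built from FARSA and FARSB. CPM is not divided by length, so a ratio is read only between libraries. For cysteine the log2 ratio was 0.68, 0.54 and 0.73 in brain and -0.31 and -0.27 in spleen. The ratio was higher in every brain library than in both spleen libraries, by 0.94 on the log2 scale.

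Serine and threonine followed, with differences in the log2 ratio of 0.75 and 0.70. Alanine, leucine and asparagine had differences of 0.34, 0.29 and 0.13. In 7 of the 16 pairs, these included, each brain ratio was above each spleen ratio. Of single genes over all genes tested, 23.3% had every brain library above and 19.5% had every brain library below. A share for ratios between pairs of other genes was not computed, so these counts of pairs have no background of their own. Tryptophan went the other way: the log2 ratio of WARS1 to WARS2 was 2.20, 2.33 and 2.24 in brain and 2.81 and 2.80 in spleen, a difference of -0.55. Arginine (-0.28) and histidine (-0.13) also had each brain ratio below each spleen ratio, and in 6 pairs the groups overlapped. In 8 of the 16 pairs the exact two-sided permutation p was 0.1, the smallest that 3 against 2 libraries allow. The lowest value adjusted over the 16 pairs was 0.2, and the design cannot reach 0.05. The pairs with EPRS1 share that gene.

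**Figure D4:**
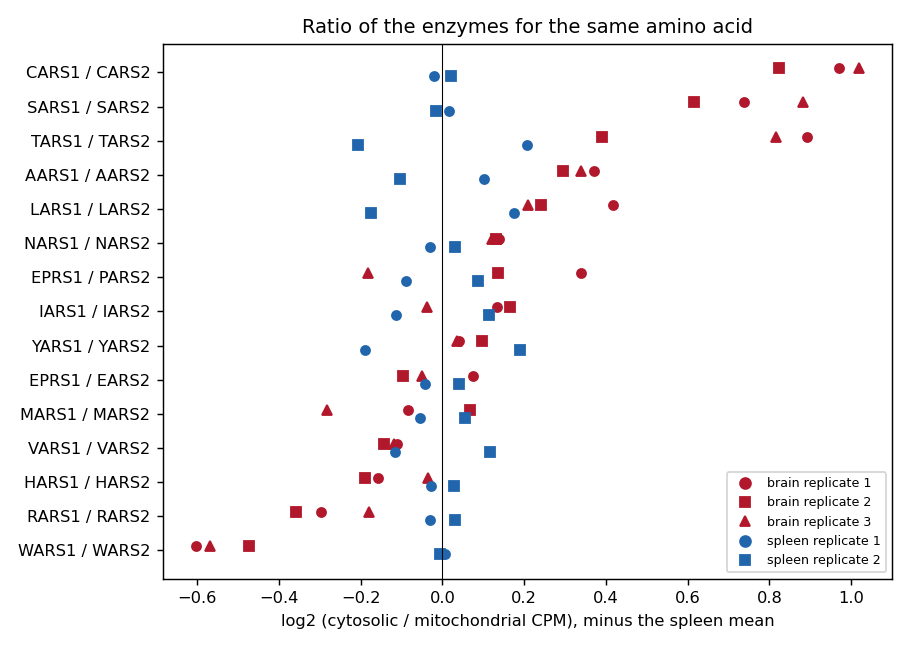
Log2 ratio of cytosolic to mitochondrial CPM for 15 of the 16 pairs of enzymes for the same amino acid, each minus the mean of its 2 spleen libraries, with 1 point for each library. The difference between brain and spleen means runs from -0.55 (WARS1 and WARS2) to 0.94 (CARS1 and CARS2).

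KARS1 makes both the cytosolic and the mitochondrial lysine enzyme by alternative splicing. The transcript of the cytosolic form (ENST00000302445, 597 residues) held 86.8%, 86.5% and 88.0% of the gene's TPM in brain and 88.8% and 86.5% in spleen. The transcript of the mitochondrial form (ENST00000319410, 625 residues) held 4.07%, 4.38% and 3.34% in brain and 2.84% and 3.22% in spleen. The lowest brain share of the mitochondrial form was above the highest spleen share by a small margin. The shares are model estimates for transcripts that have most of their sequence in common.

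The genes were also grouped by structure and regulation. Class I enzymes, which have a Rossmann fold at the active site, counted 1 higher (CARS1) and 2 lower (WARS1 and CARS2) of 19, and class II enzymes 0 higher and 1 lower (SARS2) of 17, with EPRS1 in both. Over all genes, 6.01% were called higher and 3.5% lower. At an unadjusted p under 0.05, 1 class I gene was higher and 4 lower, and 2 class II genes were higher and 4 lower. Over all genes these shares were 14.2% and 11.3%. Of the 8 enzymes of the multisynthetase complex, among them EPRS1, IARS1, KARS1, LARS1, MARS1, QARS1 and RARS1, 0 were called in either direction by edgeR or by DESeq2, and 1, KARS1, was lower at an unadjusted p under 0.05. Their median log2 fold change was 0.02. Of 13 synthetases listed as ATF4-responsive, 1 was higher (CARS1) and 1 lower (WARS1), with a median of 0.07 that moved to 0.11 when spleen replicate 1 was left out and to 0.033 when spleen replicate 2 was. The 6 cytosolic genes whose window held TGATGNAA had log2 fold changes from -0.10 (MARS1) to 0.45 (CARS1), with a median of 0.10, and the 8 without it from -0.53 (WARS1) to 0.29 (SARS1), with a median of -0.07. Both ranges overlap widely, and these are descriptions without a test.

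A further list joined partners of the cytosolic enzymes with related enzymes, among them the subunits of the phenylalanine enzyme and an editing protein. Its genes were lower in brain where they passed the test. Of its 9 genes, 3 were lower and 0 higher by edgeR, and the median log2 fold change was -0.34. All 9 had a negative value, but DTD1 was near the floor, at 0.20 to 0.80 CPM over the libraries. At an unadjusted p under 0.05, 6 were lower and 0 higher, and DESeq2 called 4 lower and 0 higher. The shares of all genes called lower were 3.5% by edgeR, 11.3% at the unadjusted threshold and 7.29% by DESeq2. FARSB, the beta subunit of the cytosolic phenylalanine enzyme, was at 72.5, 74.7 and 81.3 CPM in brain and 107 and 104 CPM in spleen (log2 fold change -0.47, SE 0.10, adjusted p = 0.0199 by edgeR). FARSA, its alpha subunit, was at -0.33 (adjusted p = 0.0752 by edgeR), so that the cytosolic and mitochondrial phenylalanine enzymes had fold changes of the same sign. AIMP2, a scaffold of the multisynthetase complex, was lower by the same test (log2 fold change -0.51, SE 0.13, adjusted p = 0.0435 by edgeR), and AARSD1, an editing protein that clears mischarged alanine tRNA, was at -0.54 (SE 0.11, adjusted p = 0.0219 by edgeR). The list held 0 called genes when brain replicate 1, brain replicate 2 or spleen replicate 1 was left out, and with the mouse share as a covariate.

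Of 11 genes that complete or modify mitochondrial tRNAs, edgeR called 1 lower and 0 higher, beside 3.5% and 6.01% of all genes. The median was -0.13. At an unadjusted p under 0.05, 3 were lower and 0 higher, and DESeq2 called 2 lower and 0 higher, beside 11.3% and 7.29% of all genes lower. Without spleen replicate 1 the median was -0.061. GTPBP3, which modifies the wobble base of mitochondrial tRNAs, was at 29.9, 33.9 and 30.2 CPM in brain and 45.5 and 43.6 CPM in spleen (log2 fold change -0.51, SE 0.10, adjusted p = 0.0189 by edgeR). Of 10 mitochondrial translation factors, edgeR called 3 lower and 0 higher, beside 3.5% and 6.01% of all genes. The median was -0.0039. At an unadjusted p under 0.05 these counts were also 3 and 0, as they were by DESeq2. TUFM, the elongation factor that brings charged tRNA to the mitochondrial ribosome, had a log2 fold change of -0.57 (adjusted p = 0.0214 by edgeR), its exchange factor TSFM -0.50 (0.0439) and the initiation factor MTIF2 -0.44 (0.0206). None of the mitochondrial translation factors was called when brain replicate 1, brain replicate 2 or spleen replicate 1 was left out, or with the mouse share as a covariate, and GTPBP3 was lost without brain replicate 1, brain replicate 3 or spleen replicate 1 and with that covariate.

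In the cytosol, charged tRNA is used in elongation. Of a list of 8 factors, among them ETF1 and GSPT1 of termination, edgeR called 1 higher and 1 lower, beside 6.01% and 3.5% of all genes. At an unadjusted p under 0.05, 3 were higher and 2 lower (all genes 14.2% and 11.3%). DESeq2 called 3 higher and 1 lower (all genes 8.6% and 7.29%). EEF2, which moves the ribosome along the message, was at 2222, 2265 and 2274 CPM in brain and 1687 and 1413 CPM in spleen (log2 fold change 0.54, SE 0.11, adjusted p = 0.0204 by edgeR). EIF5A, which helps the ribosome through difficult peptide bonds, was lower (log2 fold change -0.56, adjusted p = 0.0226 by edgeR). The EEF2 call was lost with the replicate block, with the mouse share as a covariate and without brain replicate 1, 2 or 3 or spleen replicate 2, and the EIF5A call with that covariate and without brain replicate 1, brain replicate 2 or spleen replicate 1.

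Of 18 genes of the amino acid response, edgeR called 5 higher and 0 lower, beside 6.01% and 3.5% of all genes. The log2 fold change was positive in 14 and negative in 4, with a median of 0.17. At an unadjusted p under 0.05, 7 were higher and 1 lower (all genes 14.2% and 11.3%), and DESeq2 called 6 higher and 0 lower (all genes 8.6% and 7.29%). Leaving out spleen replicate 1 moved the median to 0.35, and leaving out spleen replicate 2 moved it to 0.041. DDIT4, an inhibitor of mTORC1 signalling, had a log2 fold change of 2.05 (adjusted p = 0.000228 by edgeR), the leucine transporter SLC7A5 1.01 (0.00122) and the leucine sensor SESN2 0.99 (0.00353). DDIT3 (0.83) and TRIB3 (0.86) were the others called, and are named after their values were seen. The TRIB3 call was lost with RLE size factors, with summed transcript estimates and when brain replicate 1, brain replicate 2 or spleen replicate 2 was left out. ATF4 mRNA itself was at 0.19 (adjusted p = 0.466 by edgeR) and ASNS, the asparagine synthetase and an ATF4 target, at 0.36 (0.0582). With the mouse share as a covariate DDIT4 was the only one called. Beside these 5 of 18, the synthetases listed as ATF4-responsive had 1 of 13 higher, and the difference between the lists was not tested.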

How the data were processed

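RNA of 3 brain and 2 spleen libraries was analysed from deposited values. Per the submitters' processing notes, bcl2fastq 1.8.4, cutadapt 1.5, kallisto 0.42.4 and DESeq2 were used with GRCh38 and GRCm38; for their order and the strand setting, the sources used here give nothing. The deposited gene table holds estimated counts as whole numbers, and the authors' second gene table holds log2 (rlog) values, used only as an alternative. The transcript tables, 1 for each library, hold estimated counts, effective lengths and TPM per the file headers; TPM was rescaled here to human transcripts. Both gene tables have 1 column of no sample, which was not used.

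Identifiers were matched to GENCODE 44 (56322 of 65217). Counts were tested with edgeR 4.0.16 (R 4.3.3): filterByExpr, TMM, quasi-likelihood F test with site as the only term, Benjamini-Hochberg adjustment over 20419 genes, threshold 0.05, 3 residual degrees of freedom. CPM used TMM-scaled library sizes. Alternatives used DESeq2 1.42.0, limma 3.58.1, other scalings and filters, the mouse share, the replicate block and leaving out libraries. P-values measure the spread between pools from separate occasions.

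The members and lists were chosen with earlier results of these data known. Genes are named if they are members past the threshold; otherwise the 3 most abundant and the highest and lowest fold change of each class, with GARS1, KARS1 and WARS1; and of each other list up to 3 called genes with the smallest p. Others are named for their role in a comparison.

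The labels' protocols give the replicate numbers 1 to 3 to the 3 occasions, and no other source ties a brain library to a spleen library. The deposited column names number the spleen libraries otherwise (REHS2 for replicate 1 and REHS4 for replicate 2). They do not give the pairing used in the block, so the block may not match the occasions. Over 20419 genes, deviations from group means correlated at -0.03 between the libraries numbered 1 and at 0.15 between those numbered 2, but also at 0.15 between brain replicate 3 and spleen replicate 1, so the values do not show the pairing. The block changed the call of SARS2 and TARS1 among the members. Mouse genes were not analysed by name. Some genes that the rule takes enter the counts and sums, and their own values are not reported here.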

Additional observations from a re-analysis of the deposited data

How the results depend on the processing

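The fold changes of CARS1, WARS1, CARS2, SARS2, TARS1, FARS2, VARS1 and KARS1 kept their direction in all 14 alternatives run, while calls near the threshold moved. The cytosolic genes called higher were 2 with upper-quartile scaling, with no filter on low counts, with a filter of 1 CPM in 2 libraries, with the replicate block and with DESeq2, where TARS1 joined CARS1, and 0 with the mouse share as a covariate. The cytosolic genes called lower were 2 with no filter and with DESeq2, where VARS1 joined WARS1, and 0 with the mouse share. The mitochondrial genes called lower were 1 with the replicate block, where SARS2 was lost, and 0 with the mouse share; FARS2 passed with upper-quartile scaling, no filter, 1 CPM in 2 libraries and DESeq2. The median log2 fold change of the mitochondrial genes was -0.16 with the mouse share and -0.050 with summed transcript estimates, from which genes with unmatched transcripts were left out. Over all genes, 1337 were lower with no filter and 1289 with DESeq2, and 114 were higher and 11 lower with the mouse share. The replicate block changed no other call among the members. The difference in the log2 ratio of the summed sets, 0.11 by TPM, was 0.20 by CPM and 0.18 by TPM without TARS1. The cause of these changes was not tested.

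Fold changes near 0 changed sign: GARS1 was at -0.0039 with RLE size factors, -0.068 with the mouse share, -0.0018 with summed transcript estimates and -0.0025 with DESeq2; YARS2 was at -0.0094 with the replicate block and -0.12 with the mouse share; RARS2 was at -0.029 with the mouse share. With 1 library left out, the ranges were -0.083 to 0.11 for GARS1, -0.11 to 0.20 for YARS2, -0.076 to 0.22 for RARS2, -0.13 to 0.062 for IARS2 and -0.088 to 0.079 for NARS2. Leaving out 1 library gave 0 to 1 cytosolic genes higher, 0 to 2 cytosolic genes lower and 0 to 2 mitochondrial genes lower, a mitochondrial median of -0.15 to -0.040, and 515 to 871 genes higher and 146 to 828 lower over all genes. Without spleen replicate 1 or 2 the remaining spleen library is assumed to vary like the brain libraries. Summing alternate-haplotype copies with the reference gene was not run. With 2 spleen libraries, differences of the size seen in TARS1 fall on either side of the threshold.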
